A study of Mus musculus with 42 samples.

Results

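Culture RNA-seq libraries labelled Ts65Dn;Brwd1+/- were compared with those labelled Euploid. The comparison took the 3 libraries of each label from the 42 samples of the series. Each library gave counts per gene, and the calls were read over the 16513 genes of chromosomes 1 to 19 among 17173 genes tested. All were primary neuronal cultures of mouse forebrain taken at embryonic day 16 (E16). By the study's methods, E16 is the day of dissection, and RNA came from cells collected later, after growth in vitro. The compared genotypes were kept on the same mixed genetic background. Per the study's methods, the cortices of single embryos were plated in serum and then kept in Neurobasal with B27, with AraC added against dividing glia. Euploid cultures carry no extra chromosome. Ts65Dn mice carry a small freely segregating extra chromosome made of distal chromosome 16 and proximal chromosome 17, and serve as a model of Down syndrome. Ts65Dn;Brwd1+/- animals came from Ts65Dn mothers and fathers with 1 disrupted Brwd1 copy, so the genotype is meant to hold the extra chromosome with Brwd1 at the normal dose. The question was what still separates cultures of that genotype from euploid ones.

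The values of the labels' own check genes stand first, because they bear on every direction below. Brwd1, a bromodomain and WD-repeat protein of the triplicated segment, read 93.1, 85.8 and 89.1 counts scaled to library size (CPM) in Euploid replicates 1 to 3 and 145, 146 and 124 CPM in Ts65Dn;Brwd1+/- replicates 1 to 3. The Ts65Dn libraries, with no disrupted copy by their label, read 129, 126 and 125 CPM, so Brwd1 in the libraries labelled Ts65Dn;Brwd1+/- stood at about the trisomic level and against the label. The log2 difference from Euploid was 0.63 ± 0.08 (SE, edgeR quasi-likelihood test, BH-adjusted p = 0.000296), and whether the counted reads include transcripts of a disrupted allele is not known from these files. Xist, the RNA of the inactive X chromosome, lay between 0.526 and 1.12 CPM in Euploid and between 1410 and 1980 CPM in the libraries labelled Ts65Dn;Brwd1+/-. Together, 4 Y-linked genes lay between 194 and 223 CPM in Euploid and between 0.0556 and 0.149 CPM in the other libraries, although the labels describe pooled males and females. Sex and genotype cannot be told apart in this comparison, and for that reason counts over all genes were taken over autosomes alone. The gene lists kept their few X-linked members, 1 each in the oligodendrocyte, interneuron, hypoxia and respiratory chain lists and 2 in the synapse list. Over autosomal members alone, 18 of 23 oligodendrocyte genes were higher and 1 lower (median log2 fold change 1.68). Likewise, 18 of 35 interneuron genes were higher and 2 lower (median 0.56). Over all autosomal genes tested, 14.1% were higher and 15.2% lower. Depth in genes ran from 17270070 to 25892802 counts per library. The study's methods state that single animals counted as samples without pooling, whereas the labels call the cultures pooled, so the p-values may measure spread between cultures or between pools.

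As background, cortical cultures begun at this age hold mostly glutamatergic neurons born in the dorsal forebrain, with GABAergic interneurons that migrate in from the ventral forebrain. The ventral progenitors are marked by Dlx, Gsx and Nkx2-1 transcription factors and also give rise to striatal neurons and to the first oligodendrocyte progenitors. Oligodendrocyte fate depends on Olig2, then Sox10, and myelin genes follow later. AraC kills cells in DNA replication, so dividing cells and glia are usually a minority in such cultures.

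The libraries labelled Ts65Dn;Brwd1+/- differed from Euploid in both directions to a similar extent. Of the autosomal genes, 2328 were higher (14.1% of those tested) and 2515 were lower (15.2%) by edgeR's quasi-likelihood test at a Benjamini-Hochberg (BH) adjusted p under 0.05. A change beyond 1.5-fold was seen in 1153 of the genes that rose and in 1464 of those that fell. The called share, 29.3% over all autosomal genes, lay between 26.2 and 34.7% on single chromosomes. The median autosomal log2 fold change was -0.02. Without Ts65Dn;Brwd1+/- replicate 3, 1530 genes were called higher.

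Among the 12 protein-coding genes with the largest rises, several are known from the oligodendrocyte lineage or the ventral forebrain. Zfp488, a transcription factor of oligodendrocyte differentiation, rose by 5.17 ± 0.47 (log2, SE), and Sox10 rose by 4.29 ± 0.37. Vax1, a homeobox gene of the ventral forebrain, read 1.12, 0.877 and 1.09 CPM in Euploid and 20.1, 16.3 and 18.4 CPM in the libraries labelled Ts65Dn;Brwd1+/-. Further large rises were those of Gpr17 (5.61, and 6.52 without Euploid replicate 3), Tmem255b (4.61), Cyp4f15 (3.67), the Notch-modifying glycosyltransferase Mfng (3.49), Dlx2 (2.99), the adenosine receptor Adora2a (2.80), Eya2 (2.78) and Pdgfra (2.77). Gpr17 and Tmem255b overlap other protein-coding genes, Lims2 and Gas6, whose reads cannot be separated without strand. In Euploid replicates 1 to 3, Zfp488 had 2, 2 and 5 counts, Gpr17 2, 2 and 8, and Tmem255b 6, 4 and 8. The sizes of these rises rest on few Euploid counts and are uncertain.

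The largest falls held interferon-induced genes, chemokines and genes of support cells. Ttr, the thyroid hormone carrier made by choroid plexus, fell by 5.41 on the log2 scale (3.48 without Euploid replicate 2 and 6.29 without Ts65Dn;Brwd1+/- replicate 3), and Igf2, a growth factor of meninges, fell by 3.53. The lysozyme gene Lyz2, typical of myeloid cells, read 12.1, 5.31 and 3.92 CPM in Euploid and 0.624, 0.612 and 0.373 CPM in the libraries labelled Ts65Dn;Brwd1+/-. Ifi44, Ifit1, Trim30a and Usp18, all known as interferon-induced, fell by 3.73, 3.06, 2.73 and 2.62. The guanylate-binding protein gene Gbp5 and the chemokines Cxcl10 and Ccl2 fell by 3.09, 3.24 and 2.60. Pkd1l1 and the serotonin receptor gene Htr5b fell by 3.84 and 2.79. Cxcl10, Ccl2 and Igf2 share bases with another annotated protein-coding gene, and Trim30a has close copies and stood at -2.10 without Euploid replicate 1.

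The trisomic difference was still present along the triplicated segment. The tested genes of its 2 pieces span 16:84717576-98031801 (13.3 Mb) and 17:3044014-8986648 (5.94 Mb) in mm10. Of 271 genes annotated there, 134 passed the filter on low counts. Of those 134, 82 rose (61.2%), 5 fell and 47 were not called, beside 14.1 and 15.2% of all autosomal genes. The median log2 fold change was 0.55 with quartiles of 0.27 and 0.74, a median fold of 1.47 where 3 gene copies instead of 2 would give 1.5. It was close in the pieces taken apart, at 0.56 over 91 genes of chromosome 16 and 0.54 over 43 genes of chromosome 17.

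The shift was present in each library labelled Ts65Dn;Brwd1+/- and was not seen on the rest of both chromosomes. Taken per library against the Euploid mean, the median over segment genes was 0.55, 0.52 and 0.48 in Ts65Dn;Brwd1+/- replicates 1 to 3 and between -0.01 and 0.02 in Euploid. Over the remaining 409 tested genes of chromosome 16 the median log2 fold change was -0.07, with 33 genes higher (8.07%) and 71 lower (17.4%). Over the remaining 738 genes of chromosome 17 it was 0.04, with 149 higher and 98 lower. Over the 24 genes in the first 5 Mb beyond the chromosome 17 piece it was 0.00. On chromosome 16, 2 tested genes lay in the last 5 Mb before the segment, and neither was called. In the Ts65Dn libraries, which were set against the same Euploid libraries, the segment median was 0.63.

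**Figure D1:**
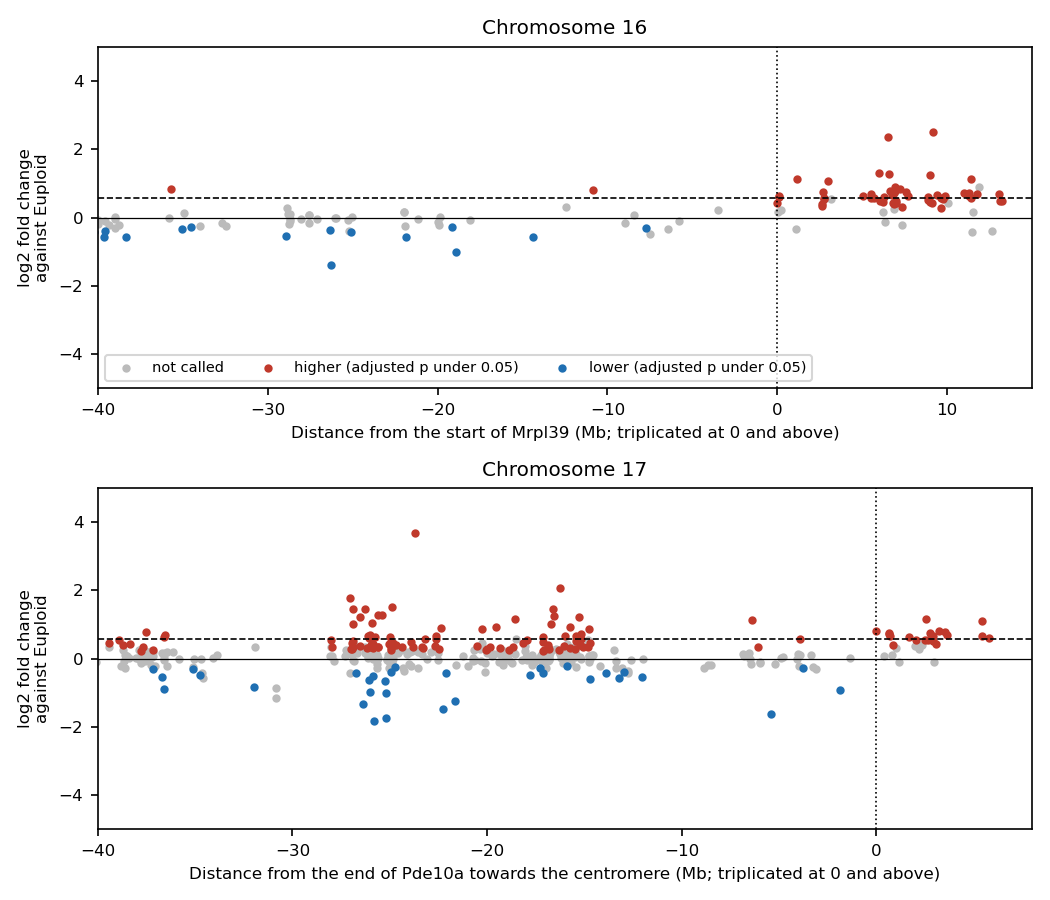
Log2 fold change of single genes (libraries labelled Ts65Dn;Brwd1+/- against Euploid) against their distance in Mb from the start of the chromosome 16 piece and from the end of the chromosome 17 piece, for genes with a mean of at least 5 CPM in either group. The dashed line marks 0.58, the log2 of 1.5. Segment genes lie around that line with a median of 0.57 over 94 genes, and the rest of both chromosomes lies around 0.

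Most single genes of the segment could not be separated from a 1.5-fold rise. The 95% confidence interval of the fold change included 1.5 for 87 of the 134 genes, lay below it for 30 and above it for 17. Dyrk1a, a kinase studied for its role in Down syndrome, read 91.7, 92.2 and 91.2 CPM in Euploid and 144, 142 and 144 CPM in the libraries labelled Ts65Dn;Brwd1+/-. This difference of 0.64 ± 0.06 (log2, SE) had an interval of 0.51 to 0.77 (edgeR quasi-likelihood test, BH-adjusted p = 4.68e-05). Sod1, the cytosolic superoxide dismutase, and Rcan1, an inhibitor of calcineurin, rose by 0.57 and 0.62.

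The genes above a 1.5-fold rise included chromatin and cell division factors and the paired Olig genes. Chaf1b, a subunit of the histone chaperone that loads nucleosomes on newly replicated DNA, read 3.79, 4.52 and 4.10 CPM in Euploid and 24.6, 22.3 and 24.4 CPM in the libraries labelled Ts65Dn;Brwd1+/-. It rose by 2.52 ± 0.12, and Mis18a, a factor of centromere assembly, rose by 1.30. Hmgn1, a nucleosome-binding protein, went from 72.6, 74.0 and 77.8 CPM to 164, 160 and 168 CPM, a rise of 1.13 ± 0.08. Bach1, a haem-sensing transcription repressor, rose by 1.06, the Rac activator Tiam2 by 1.11 and the splicing cofactor Son by 0.89. In each of these genes every library labelled Ts65Dn;Brwd1+/- lay above every Euploid library, a separation seen in one direction or the other in 46.1% of the autosomal genes. Hmgn1 has processed pseudogenes, and Son and Tiam2 overlap the genes Donson and Tfb1m.

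Other segment genes lay below a 1.5-fold rise. App, the amyloid precursor protein gene, read 2450, 2760 and 2330 CPM in Euploid and 3240, 2770 and 2750 CPM in the libraries labelled Ts65Dn;Brwd1+/-. Its log2 difference of 0.22 was not called and its interval was -0.03 to 0.46, where the Ts65Dn libraries differed from the same Euploid libraries by 0.67. The protease genes Adamts1 and Bace2 (-0.34 and -0.40) and the inositol transporter gene Slc5a3 (-0.22) were not called either. Adamts1 and Bace2 were both called lower with the 6 libraries fitted alone, with DESeq2 and without the filter on low counts, and Bace2 also with the DESeq2 size factors in edgeR (-0.41) and without Ts65Dn;Brwd1+/- replicate 2 (-0.52). The 5 segment genes that fell are all low in these cultures, and DESeq2 and the fit without the filter each called 9 lower. Mx1 and Mx2, antiviral GTPases induced by interferon, fell by 1.90 and 1.00, and Clic6 and Kcne2, ion channel genes of the choroid plexus, fell by 2.54 and 1.45. Map3k7cl fell by 0.64, and its highest library in either group was at 3.51 CPM. Without Ts65Dn;Brwd1+/- replicate 1, 2 segment genes instead of 5 were called lower, and without Euploid replicate 2 Clic6 stood at -1.43. Kcne2 was also not called without Euploid replicate 2 (-0.91) or Ts65Dn;Brwd1+/- replicate 2 (-1.52) or 3 (-1.18), nor Map3k7cl without Euploid replicate 2 (-0.55) or 3 (-0.68).

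Oligodendrocyte genes were raised, with a larger median among the progenitor genes than among the myelin genes. The difference between these groups was not tested. Of 24 tested members of the list, 18 rose and 2 fell, beside 14.1 and 15.2% of all autosomal genes. Their median was 1.68, beside -0.02 for all autosomal genes. In the progenitor group 13 of 15 rose (median 2.35) and none fell. In the myelin group 5 of 9 rose and 2 fell (median 1.01). The summed level of the progenitor genes went from a range of 527 to 560 CPM in Euploid to 1290 to 1520 CPM, whereas that of the myelin genes lay at 102 to 117 CPM in Euploid and 92.1 to 98.3 CPM in the libraries labelled Ts65Dn;Brwd1+/-. In bulk RNA, a change in the number of such cells and a change in RNA per cell cannot be told apart.

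Olig2, the transcription factor that sets oligodendrocyte fate, read 36.6, 39.0 and 43.5 CPM in Euploid and 230, 177 and 200 CPM in the libraries labelled Ts65Dn;Brwd1+/-. Its neighbour Olig1 read 193, 251 and 215 CPM in Euploid and 596, 496 and 512 CPM in the others. Both lie in the triplicated segment, and their rises of 2.35 ± 0.11 and 1.28 ± 0.13 exceeded a 1.5-fold change by their intervals. Sox10, the factor that switches on the oligodendrocyte programme and lies on chromosome 15, read 2.57, 1.84 and 3.00 CPM in Euploid and 57.7, 37.4 and 50.2 CPM in the others. Pdgfra, the growth factor receptor of oligodendrocyte progenitors, read 19.2, 16.9 and 20.6 CPM in Euploid and 135, 114 and 136 CPM in the others. No library of one group overlapped the other in any of these genes, as in 46.1% of all autosomal genes. In Ts65Dn against the same Euploid libraries, Olig1 and Olig2 stood at 1.04 and 0.54 and were called higher, and Sox10 and Pdgfra stood at 0.93 and -0.36 and were not called.

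Later genes of the lineage were mixed. Cspg4, the NG2 proteoglycan of progenitors, rose by 2.66. Bcas1 and Gpr17, which mark cells about to mature, rose by 4.46 and 5.61. Counts per Euploid library were 1, 2 and 2 for Bcas1 and 8 or fewer for Gpr17. Mbp, a major myelin protein gene, read 5.53, 4.96 and 4.05 CPM in Euploid and 10.3, 9.97 and 9.15 CPM in the others, a rise of 1.01. Cnp, an enzyme of the myelin sheath, fell by 0.33, a call that ended without Euploid replicate 3 (-0.29) or Ts65Dn;Brwd1+/- replicate 1 (-0.30). Mog, a late myelin gene, differed by 0.05 ± 0.20 and was not called. Mag, Mobp, Enpp6 and Opalin had at most 7 counts in any of these libraries and were not tested.

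**Figure D2:**
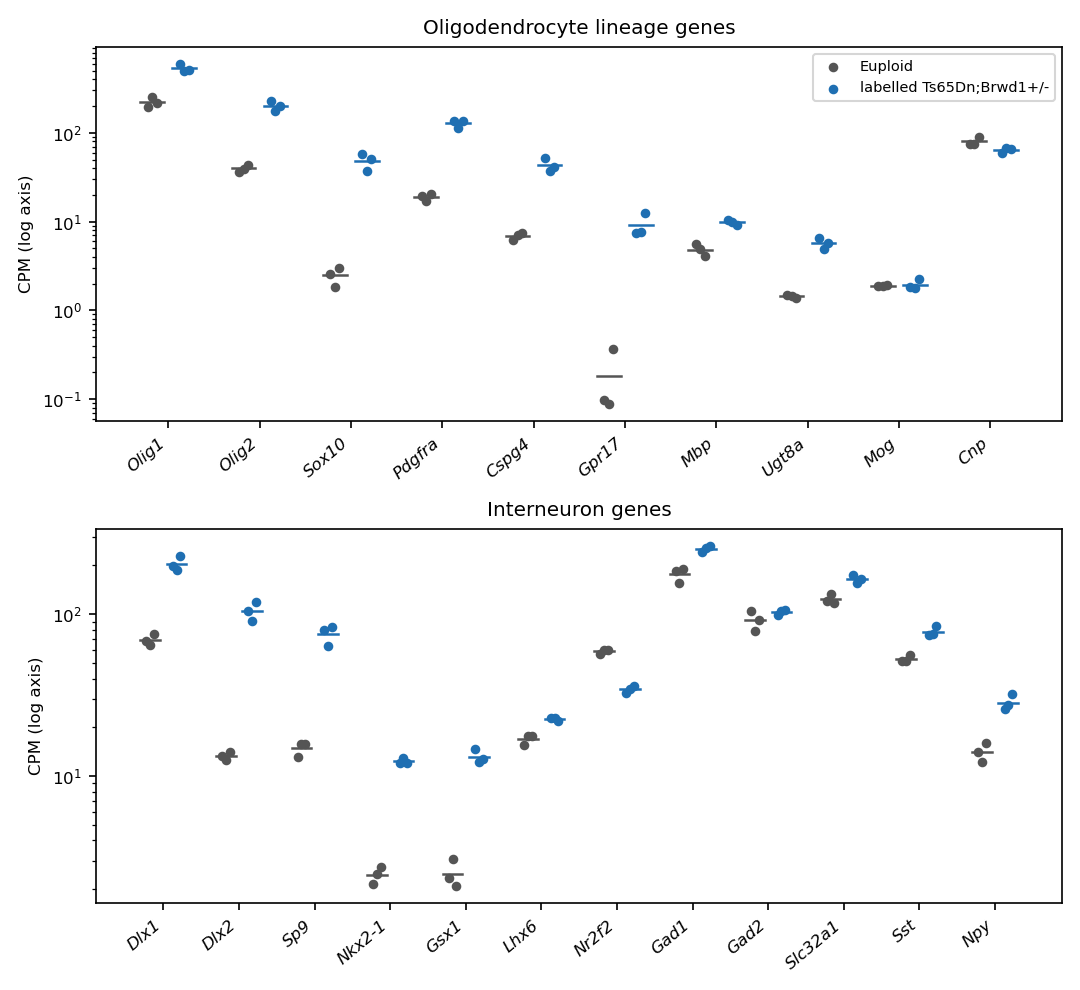
CPM on a log axis in each library (points) with the group mean (line) for oligodendrocyte lineage genes and interneuron genes, for the libraries of both labels. Olig2, Sox10, Pdgfra and Dlx2 are separated between the groups, whereas Mog and Gad2 overlap.

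Among interneuron genes, the transcription factors of the ventral forebrain rose and the genes of GABA synthesis were not called. Of 18 tested transcription factors, 15 rose and 1 fell, with a median of 1.47. Of the 5 genes of GABA synthesis and transport, 0 were called by edgeR (median 0.17), with 1 at an unadjusted p under 0.05 and 0 called by DESeq2. With the 6 libraries fitted alone, 2 of the 5 were called higher, and the median was 0.27 without Euploid replicate 1. Of 13 subtype genes, 4 rose and 1 fell, beside 14.1 and 15.2% of all autosomal genes. Their median of 0.44 was 0.27 without Euploid replicate 3. With the 6 libraries fitted alone or without the filter on low counts, 3 subtype genes were called lower.

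Dlx2, a homeobox factor of ventral progenitors, read 13.3, 12.5 and 14 CPM in Euploid and 105, 90.9 and 119 CPM in the libraries labelled Ts65Dn;Brwd1+/-, a rise of 2.99 ± 0.16. Nkx2-1, which marks the medial ganglionic eminence, went from 2.14, 2.50 and 2.73 CPM to 12, 12.9 and 12.1 CPM, a rise of 2.32 ± 0.20. Sp9, Gsx1 and Gsx2, further factors of ventral progenitors, rose by 2.35, 2.40 and 2.33. Lhx6, which acts in the young interneurons derived from the medial eminence, rose by 0.40, a call that ended when any 1 of the 6 libraries was left out (0.34 to 0.43). Nr2f2 was the 1 transcription factor of the list that fell, by 0.78.

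Gad1, which encodes the main GABA-synthesising enzyme, read 186, 156 and 191 CPM in Euploid and 242, 256 and 264 CPM in the others. The groups did not overlap, as in 46.1% of all autosomal genes. The difference of 0.51 ± 0.21 did not pass (edgeR quasi-likelihood test, BH-adjusted p = 0.0899). Gad2 and the vesicular transporter gene Slc32a1 stood at 0.17 and 0.41 and were not called. The neuropeptide genes Npy and Sst rose by 1.01 and 0.56, Adarb2 by 0.87 and the neuregulin receptor gene Erbb4 by 0.58. The call of Sst ended when any 1 of the 6 libraries was left out (0.47 to 0.57). Pvalb, a marker of fast-spiking cells that appears late, fell by 1.49 from a highest Euploid library of 1.60 CPM.

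Striatal genes rose with the ventral transcription factors. Of 20 tested members, 15 rose and 1 fell (median 1.14), beside 14.1 and 15.2% of all autosomal genes. Ppp1r1b, which encodes the dopamine-regulated phosphoprotein DARPP-32, read 13.1, 15.3 and 13.6 CPM in Euploid and 48.4, 58.1 and 58.9 CPM in the libraries labelled Ts65Dn;Brwd1+/-. Its rise was 1.97 ± 0.11. The transcription factors Bcl11b, Foxp2 and Six3 rose by 1.89, 2.34 and 2.50, and the dopamine receptor genes Drd1 and Drd2 by 1.05 and 1.36. Isl1, a factor of striatal projection neurons, had 0, 0 and 1 counts in Euploid and 23, 19 and 36 counts in the others. Pdyn, the dynorphin precursor gene, fell by 1.64, and Ebf1 (0.55) was not called.

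Genes of dividing cells rose almost without exception. Of 57 tested members, 54 rose (beside 14.1% of all autosomal genes) and 0 fell, with a median of 1.07, and DESeq2 called 54 as well. The summed level lay between 1440 and 1550 CPM in Euploid and between 2710 and 2800 CPM in the libraries labelled Ts65Dn;Brwd1+/-. All 24 tested genes of G2 and mitosis rose (median 1.10), as did 24 of 25 genes of DNA replication (median 1.18) and 6 of 8 genes of G1 entry (median 0.53). The exception among replication genes was E2f1, at 0.04.

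Mki67, which encodes the Ki-67 antigen of cycling cells, read 55.7, 54.2 and 55.9 CPM in Euploid and 155, 149 and 130 CPM in the others, a rise of 1.39 ± 0.09. Top2a, the topoisomerase that untangles mitotic chromosomes, read 74.7, 72.1 and 79.4 CPM in Euploid and 163, 174 and 175 CPM in the others. Mcm5, a subunit of the replicative helicase, went from 12.9, 18.3 and 17.6 CPM to 58.3, 52.7 and 58.8 CPM, a rise of 1.80 ± 0.12. The groups were fully apart in each of these genes, as in 46.1% of all autosomal genes. Ube2c, Cdc20, Ccnb1 and Cdk1, which drive entry into mitosis and exit from it, rose by 1.61, 1.09, 1.07 and 0.98.

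The mitotic genes are shown with their promoters because they moved as a group. Mitotic promoters are known for the cell cycle gene homology region (TTTGAA) and for the CCAAT box. Both were searched on both strands in the 250 bases before the RefSeq start (GRCm38.p6), where 11455 of the 16513 autosomal genes had a promoter to search. Of 19 mitotic genes with a promoter, 16 held a CCAAT box (84.2%, beside 40.0% of all) and 7 held both motifs (36.8%, beside 4.66%). Of 21 replication genes, 13 held a CCAAT box (61.9%) and 3 held both (14.3%). A match is a description of letters and not evidence of a bound factor. The 160 bases before the start are given for 4 mitotic genes, 5′ to 3′ on the gene's strand, with the matches to either motif on either strand in capitals.
Cdk1, chr10:69352913-69353072, minus strand: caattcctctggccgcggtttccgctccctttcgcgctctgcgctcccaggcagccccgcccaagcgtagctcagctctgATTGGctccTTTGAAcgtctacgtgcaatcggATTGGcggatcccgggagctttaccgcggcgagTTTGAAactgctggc
Top2a, chr11:99024190-99024349, minus strand: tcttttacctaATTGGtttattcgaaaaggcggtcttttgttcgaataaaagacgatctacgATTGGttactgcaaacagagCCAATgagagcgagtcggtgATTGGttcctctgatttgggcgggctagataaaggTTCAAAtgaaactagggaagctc
Cdc20, chr4:118437344-118437503, minus strand: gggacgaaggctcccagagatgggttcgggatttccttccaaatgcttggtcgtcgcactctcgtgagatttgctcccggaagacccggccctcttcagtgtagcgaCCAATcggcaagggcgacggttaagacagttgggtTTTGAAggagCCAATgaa
Ube2c, chr2:164769769-164769928, plus strand: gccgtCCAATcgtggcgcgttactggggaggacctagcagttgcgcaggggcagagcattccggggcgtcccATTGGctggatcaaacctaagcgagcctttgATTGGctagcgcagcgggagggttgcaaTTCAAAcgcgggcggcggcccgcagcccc

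Inhibitors of the cell cycle and p53 targets were measured beside the division genes. Of 18 tested members, 1 rose and 7 fell (median -0.18), beside 14.1 and 15.2% of all autosomal genes, and 0 were called higher without Euploid replicate 2 or 3 or Ts65Dn;Brwd1+/- replicate 1. Ccng1, Trp53inp1 and Mdm2, all induced by p53, fell by 0.78, 0.69 and 0.54, and the death receptor gene Fas fell by 1.44. Cdkn1a, the p21 inhibitor of cyclin-dependent kinases, differed by -0.13 and was not called. In the Ts65Dn libraries, set against the same Euploid libraries, Cdkn1a stood at 1.18 and was called higher.

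Progenitor genes were counted by stage, and the difference between stages was not tested. Of 10 tested genes of committed progenitors, 6 rose and 0 fell by edgeR (median 0.85), beside 14.1 and 15.2% of all autosomal genes. Eomes, which marks intermediate progenitors of the dorsal forebrain, read 2.28, 2.32 and 3.32 CPM in Euploid and 11.5, 9.97 and 12.8 CPM in the others. The Notch ligand genes Dll3 and Dll1 rose by 2.17 and 1.13, and Insm1 and Neurog2, which act as cells leave the cycle or turn neuronal, by 1.25 and 1.41. Of 14 radial glia genes, 2 rose and 4 fell (median 0.05), beside the same 14.1 and 15.2%. Pax6 (-0.17) and Sox2 (0.21), factors that maintain neural stem cells, were not called, whereas the Notch effector gene Hes5 rose by 1.70 and Fabp7 by 0.76. The 4 that fell were Prom1 (-1.22), the matrix gene Tnc (-1.16), the intermediate filament gene Vim (-0.82) and Hopx (-0.55, not called without Ts65Dn;Brwd1+/- replicate 3). Vim read 2390, 2840 and 2920 CPM in Euploid and 1290, 1690 and 1620 CPM in the others.

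Sonic hedgehog patterns the ventral forebrain and drives progenitor division, and its pathway genes were measured beside the ventral and dividing cell lists. Of 12 tested members, 3 rose and 3 fell, beside 14.1 and 15.2% of all autosomal genes. The median was 0.07, and ran from -0.03 (without Ts65Dn;Brwd1+/- replicate 2) to 0.14 (without Euploid replicate 2) with 1 library left out. The direct target Gli1 read 16, 20.9 and 17.9 CPM in Euploid and 16.4, 20 and 18.5 CPM in the libraries labelled Ts65Dn;Brwd1+/-, so the groups overlapped. Ptch1, receptor and target of the pathway, differed by 0.14 and was not called. The co-receptor gene Gas1 fell by 0.87.

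**Figure D3:**
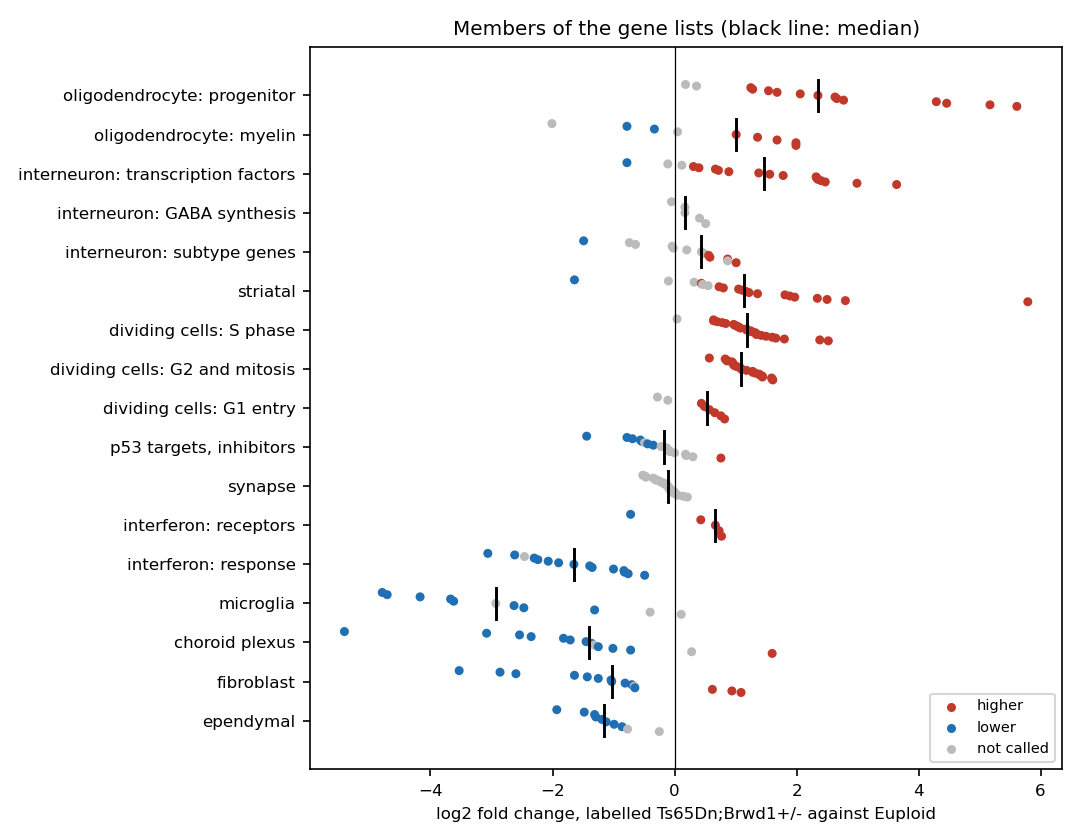
Log2 fold change (libraries labelled Ts65Dn;Brwd1+/- against Euploid) of every tested member of 17 gene groups, with the group median as a black line. Red points were called higher, blue points lower and grey points were not called. The dividing cell groups sit right of 0 almost as a whole, the interferon response group sits left of 0, and the synapse group holds no called gene.

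Glutamatergic and astrocyte genes were called in both directions, whereas no synapse or respiratory chain gene was called in the fit of all libraries. Of 18 glutamatergic genes, 4 rose and 2 fell (median -0.07), beside 14.1 and 15.2% of all autosomal genes, and Slc17a7 (0.10) and Tbr1 (0.16) were not called. With any 1 library other than Euploid replicate 2 left out, 2 glutamatergic genes were called higher. Of the same list, 5 were called lower with the 6 libraries fitted alone, 4 without the filter on low counts, and 1 without Euploid replicate 2 or Ts65Dn;Brwd1+/- replicate 2 or 3. Of 24 synapse genes, 0 were called by edgeR in either direction (median -0.11), with 0 at an unadjusted p under 0.05 and 0 called by DESeq2, and 3 were called lower with the 6 libraries fitted alone. The synapse median was -0.30 without Ts65Dn;Brwd1+/- replicate 1, -0.27 without Euploid replicate 3 and -0.06 without Euploid replicate 2. Of 16 genes of the respiratory chain, 0 were called by edgeR (median 0.06), with 2 at an unadjusted p under 0.05 and 0 called by DESeq2. Of 14 astrocyte genes, 4 rose and 2 fell (median -0.06), beside 14.1 and 15.2% of all autosomal genes. With any 1 library other than Euploid replicate 1 left out, 2 astrocyte genes were called higher, 1 was called lower without Euploid replicate 3 or Ts65Dn;Brwd1+/- replicate 1, and DESeq2 and the 6 libraries fitted alone each called 4 lower. Gfap, the intermediate filament of astrocytes, fell by 0.59, a call that ended without Euploid replicate 1 (-0.65) or 3 (-0.50) or Ts65Dn;Brwd1+/- replicate 1 (-0.45), and the water channel gene Aqp4 (-0.22) was not called. BAF subunits, which form the chromatin remodelling complex that the study examined, had 16 of 26 members higher, beside 14.1% of all autosomal genes, and 0 lower (median 0.38), and 10 higher without Euploid replicate 1.

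Interferon genes separated by role. Type I and type II interferons bind surface receptors that signal to STAT and IRF transcription factors, which switch on a common set of antiviral genes. Of 5 receptor genes, the 4 that lie in the triplicated segment rose and Ifngr1 on chromosome 10 fell. Of 15 response genes, 14 fell and 0 rose (median -1.65), beside 15.2 and 14.1% of all autosomal genes. The summed level of the response genes lay between 283 and 447 CPM in Euploid, highest in replicate 1, and between 136 and 150 CPM in the libraries labelled Ts65Dn;Brwd1+/-. Without Euploid replicate 1, 14 of the 15 were called lower, with a median of -1.38. Microglia genes, summed between 33.7 and 46.4 CPM in Euploid and between 24.3 and 29.6 CPM in the others, were lower in the same libraries, and their part in this fall was not tested.

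Ifnar1, a chain of the type I receptor, read 92.9, 90 and 92.7 CPM in Euploid and 145, 144 and 149 CPM in the others. Its rise was 0.67 ± 0.06. Ifnar2, Ifngr2 and Il10rb rose by 0.77, 0.43 and 0.73, of which Ifngr2 was not called without Euploid replicate 3 (0.31) or Ts65Dn;Brwd1+/- replicate 1 (0.34). Ifngr1, the ligand-binding chain of the type II receptor, went from 48.6, 43.6 and 49.1 CPM to 24.8, 30.4 and 30.5 CPM, a fall of 0.72. In the same libraries the response genes moved opposite to the triplicated receptors. Ifit1, which binds foreign RNA, read 32.9, 12.8 and 15.1 CPM in Euploid and 3.48, 2.62 and 1.31 CPM in the others, and fell by 3.06 ± 0.42.

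The transcription factor genes Stat2, Irf9 and Irf7 fell by 0.76, 0.83 and 2.07, and Irf7 stood at -2.78 without Ts65Dn;Brwd1+/- replicate 1. The groups did not overlap in Ifit1, as in 46.1% of all autosomal genes, and Euploid replicate 1 was its highest library. Isg15, a ubiquitin-like modifier, Bst2, which tethers budding virus, and Usp18, which removes Isg15 from proteins, fell by 2.30, 1.65 and 2.62. Oas1a (-2.46) was not called (edgeR quasi-likelihood test, BH-adjusted p = 0.0511) and had at most 28 counts in a library. It was called lower with DESeq2 (-2.58), without the filter on low counts (-2.47) and without Euploid replicate 2 (-2.82). Oas1a stood at -1.55 without Euploid replicate 1 and at -3.13 without Ts65Dn;Brwd1+/- replicate 3. In Ts65Dn against the same Euploid libraries, 14 of the 15 response genes were called higher (median 1.39), beside 25.7% of all autosomal genes. Ifit3 has the near-identical copy Ifit3b, and their counts are uncertain.

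Promoters of response genes are shown because a short element is known to mark them. The interferon-stimulated response element was searched as GAAA, any 2 bases and GAAA on both strands. It was found in 6 of 10 response genes with a promoter in the table (60.0%), in 0 of 4 receptor genes and in 361 of 11455 autosomal genes (3.15%). The 160 bases before the RefSeq start (GRCm38.p6) are given for 4 of them, 5′ to 3′ on the gene's strand, with the matches in capitals.
Ifit1, chr19:34640729-34640888, plus strand: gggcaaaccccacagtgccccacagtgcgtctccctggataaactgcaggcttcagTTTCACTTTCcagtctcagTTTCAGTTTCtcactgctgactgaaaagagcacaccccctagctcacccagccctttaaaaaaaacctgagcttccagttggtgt
Ifit3, chr19:34583369-34583528, plus strand: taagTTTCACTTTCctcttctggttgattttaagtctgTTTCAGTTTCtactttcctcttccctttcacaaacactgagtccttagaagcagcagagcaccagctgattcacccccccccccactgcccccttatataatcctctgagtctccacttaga
Isg15, chr4:156200819-156200978, minus strand: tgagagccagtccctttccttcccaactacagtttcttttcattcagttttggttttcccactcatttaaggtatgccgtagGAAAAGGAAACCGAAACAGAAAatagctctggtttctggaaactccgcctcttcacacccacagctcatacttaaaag
Bst2, chr8:71537473-71537632, minus strand: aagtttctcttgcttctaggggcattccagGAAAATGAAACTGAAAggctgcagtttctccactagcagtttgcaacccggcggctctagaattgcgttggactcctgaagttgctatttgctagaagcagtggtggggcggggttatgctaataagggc

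**Figure D4:**
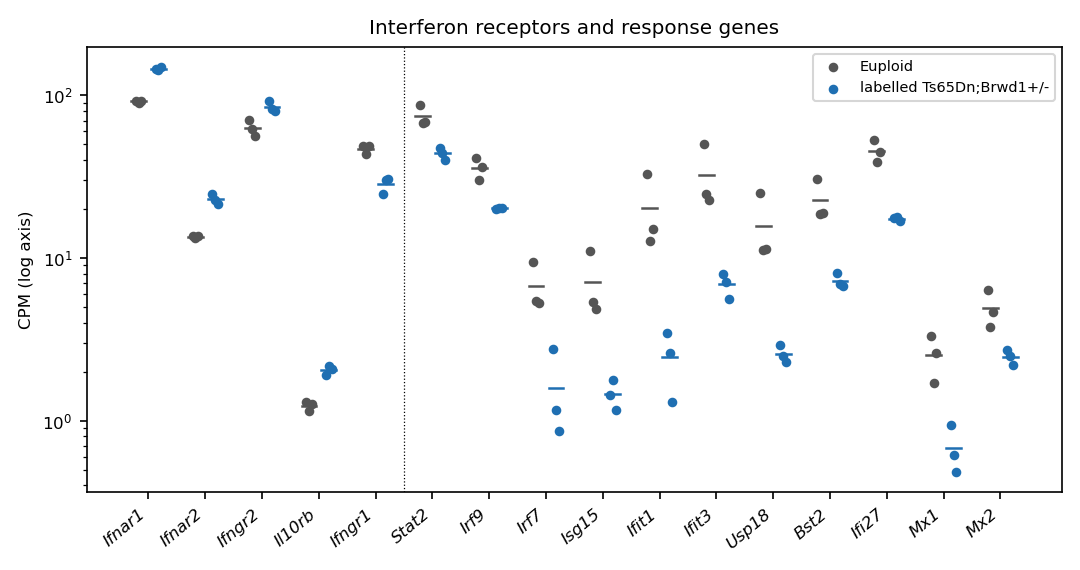
CPM on a log axis in each library (points) with the group mean (line) for the 5 interferon receptor genes, left of the dotted line, and for response genes, right of it. Ifnar1 lies higher in the libraries labelled Ts65Dn;Brwd1+/- (144 to 149 CPM against 90 to 92.9 CPM), and Ifit1 lies lower (1.31 to 3.48 CPM against 12.8 to 32.9 CPM).

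Genes of microglia, choroid plexus, meninges and ependyma were lowered. Of 18 microglia genes, 11 could be tested, of which 8 fell and 0 rose (median -2.93), beside 15.2 and 14.1% of all autosomal genes. Cx3cr1, the fractalkine receptor of microglia, had 40, 16 and 7 counts in Euploid and 1, 0 and 1 counts in the libraries labelled Ts65Dn;Brwd1+/-. Aif1, which encodes the microglial marker Iba1, read 5.05, 4.30 and 4.05 CPM in Euploid and 0.401, 0.445 and 0.224 CPM in the others. The complement genes C1qa, C1qb and C1qc and the receptor gene Csf1r fell as well. Tmem119 and P2ry12 had at most 9 counts in any of these libraries and were not tested, so the list stands at a low level in both groups. With the 6 libraries fitted alone, 6 members passed the filter and 5 of them were called lower.

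Choroid plexus genes fell in 11 of 14 tested members and rose in 1 (median -1.40), beside 15.2 and 14.1% of all autosomal genes. Ttr read 59.7, 641 and 76.7 CPM in Euploid and 3.97, 2.78 and 11 CPM in the others, so Euploid replicate 2 stood apart. The summed level of the list followed Ttr, from 200 to 809 CPM in Euploid to 72.6 to 85.6 CPM in the others. Without Euploid replicate 2, 9 members were called lower and the median was -1.12. The folate receptor gene Folr1 fell by 1.82. Otx2, a homeobox factor of choroid plexus and midbrain, was the member that rose, by 1.60.

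Of 15 fibroblast genes of the meninges, 11 fell and 3 rose (median -1.03), beside 15.2 and 14.1% of all autosomal genes. The collagen genes Col1a1, Col1a2 and Col3a1 fell by 1.03, 1.64 and 2.60, whereas the proteoglycan gene Dcn rose by 0.94 and Col6a1 by 1.09. Of 10 ependymal genes, 8 fell and 0 rose (median -1.15). Foxj1, the master factor of motile cilia, read 334, 396 and 424 CPM in Euploid and 160, 200 and 222 CPM in the others. The groups did not overlap in Foxj1, as in 46.1% of all autosomal genes. Of 8 vascular genes tested, 3 fell (median -0.40), beside 15.2% of all autosomal genes, and Cldn5, a tight junction gene of brain endothelium, had 0 counts in every one of these libraries.

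Metabolic genes that respond to low oxygen were lower in part. Of 21 tested genes of hypoxia and glycolysis, 9 fell, beside 15.2% of all autosomal genes, and 0 rose (median -0.22), among them the carbonic anhydrase gene Car9 (-2.18) and the glucose transporter gene Slc2a1 (-1.12). Slc2a1 read 226, 221 and 269 CPM in Euploid and 101, 106 and 122 CPM in the others. The growth factor gene Vegfa (-0.22) and the glycolytic enzyme gene Gpi1 (-0.17) were not called. Of 18 cholesterol synthesis genes, 2 fell, beside 15.2% of all autosomal genes, and 0 rose by edgeR (median -0.14). The median ran from -0.41 (without Ts65Dn;Brwd1+/- replicate 1) to -0.04 (without Euploid replicate 2) with 1 library left out, and was -0.30 without Euploid replicate 3 and -0.05 and -0.09 without Ts65Dn;Brwd1+/- replicates 2 and 3. With 1 library left out the number called lower ran from 0 (without Euploid replicate 1 or Ts65Dn;Brwd1+/- replicate 2 or 3) through 1 (without Euploid replicate 2) to 4 (without Ts65Dn;Brwd1+/- replicate 1).

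Overshoot was read as a gene called in one direction here and in the opposite direction in Ts65Dn against Euploid. Both comparisons use the same Euploid libraries, so an error shared by those libraries moves both in the same direction. In Ts65Dn against Euploid, 25.7% of the autosomal genes were called higher and 21.0% lower. Of the 2328 genes higher here, 382 (16.4%) were lower in Ts65Dn, 804 were higher in it and 1142 were not called in it. Of the 2515 genes lower here, 1152 (45.8%) were higher in Ts65Dn, 286 were lower in it and 1077 were not called in it. The Ts65Dn libraries themselves departed from Euploid in whole gene lists, with 27 of 36 interneuron genes and 23 of 24 synapse genes called lower. They had the sex-linked pattern of Euploid, with Xist between 0.789 and 1.10 CPM and the Y-linked genes together between 207 and 216 CPM. The part of these differences in the opposite directions was not tested.

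The largest overshoots upward were Vax1, Mfng, Dlx2, Dlx6, Gsx1 and Sp9, mostly ventral forebrain factors. Dlx2 stood at 2.99 here and at -0.96 in Ts65Dn against Euploid, and Sp9 at 2.35 and -1.41. Gsx1 stood at 2.40 here and -1.34 in Ts65Dn, and Dlx6 at 2.47 and -1.39. The largest overshoots downward were Ifi44, Ifit1, Trim30a, Usp18, C3 and Ifit3b, of which C3 encodes the central complement component and the others are induced by interferon. C3 read 256, 179 and 206 CPM in Euploid and 39.8, 35.9 and 37.5 CPM in the libraries labelled Ts65Dn;Brwd1+/-, a fall of 2.50 ± 0.16, and stood at 1.89 in Ts65Dn. Ifit1 stood at 1.47 and Usp18 at 1.39 in Ts65Dn.

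**Figure D5:**
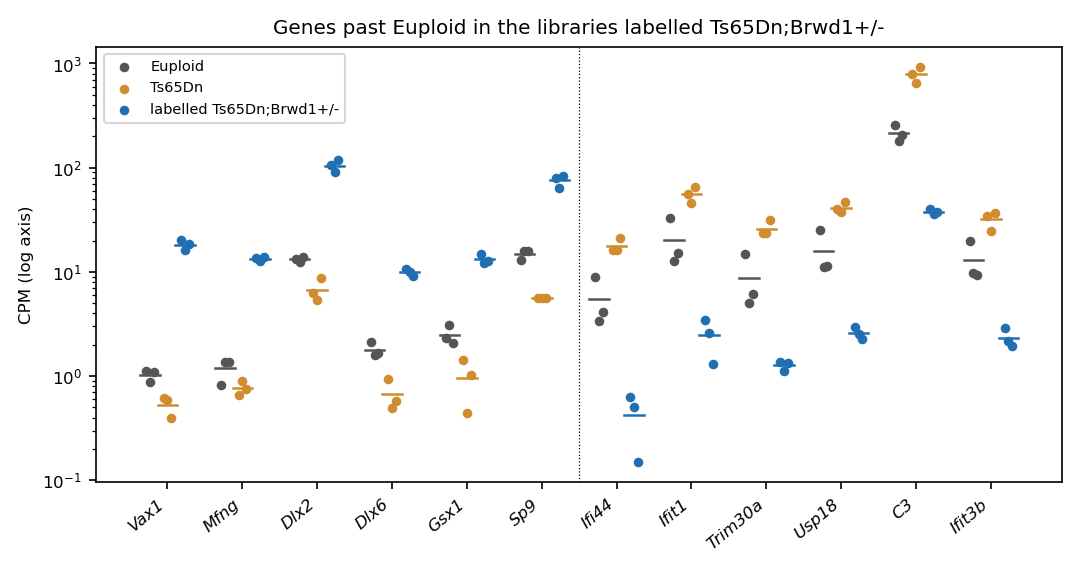
CPM on a log axis in each library (points) with the group mean (line) for the 6 largest overshoots upward, left of the dotted line, and downward, right of it, for the libraries of all 3 labels. Dlx2 lies at 12.5 to 14 CPM in Euploid and at 90.9 to 119 CPM in the libraries labelled Ts65Dn;Brwd1+/-, and C3 lies at 179 to 256 CPM and at 35.9 to 39.8 CPM.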

How the data were processed

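RNA-seq of cultures begun at E16 was used from 9 libraries, 3 per genotype. The authors aligned reads with HISAT2 to mm10 and deposited raw read counts per gene. Their paper names featureCounts with an Ensembl annotation, whereas 5 summary lines in each file have the form that htseq-count writes. Whether counting used strand is not stated. These lines, 37.5 to 40.0% of all counts in the 6 libraries compared, were left out. Of 52636 gene identifiers, 52489 (99.7%) had a symbol. Genes were kept by filterByExpr and scaled by TMM, and the 9 libraries were fitted with genotype alone by edgeR 4.0.16 (quasi-likelihood test, BH adjustment over 17173 genes, threshold 0.05). CPM used the TMM factors. DESeq2 1.42.0 was an alternative. The surrogate-factor step of the study (RUVr) was not run. The test was checked on simulated data.

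Groups came from the labels, and sample-level p-values cover these libraries only. Members and gene lists were chosen with earlier results of these data known. Named genes were the label checks, the 12 protein-coding autosomal genes with the largest called rise and the 12 with the largest fall (no overlap between groups, mean of at least 5 CPM in the higher group), the 6 largest overshoots each way under the same floor, called-lower segment genes, and list members with the smallest adjusted p or with a defining role that did not pass, with values per library for the oligodendrocyte, interneuron, dividing cell, hedgehog and triplicated lists. Other members named to describe a list were chosen after their values were seen. Intervals for fold changes are 95% intervals of the edgeR fit. The segment ran from Mrpl39 to the distal end of chromosome 16 and from the centromere of chromosome 17 to Pde10a. Promoters are from RefSeq (GRCm38.p6). Some named items are not reported here.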

Additional observations from a re-analysis of the deposited data

How the results depend on the processing

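Called directions and medians were recomputed with the 6 libraries alone, with DESeq2, with its size factors in edgeR, without the filter on low counts, over autosomal genes alone, with a replicate block, and without each replicate in turn. Of 1760 such values for the 147 named genes, 1701 kept direction and side of the threshold, 29 no longer passed, 19 newly passed and 11 changed sign, all of them near 0. Without 1 replicate, genes higher numbered 1530 to 2174 and genes lower 2012 to 2349. The medians then ran from 0.51 to 0.56 for the segment, 1.54 to 1.72 for oligodendrocyte genes, 0.46 to 0.56 for interneuron genes, 1.00 to 1.13 for dividing cell genes and -3.31 to -2.48 for microglia genes. Without the filter the segment and oligodendrocyte medians were 0.54 and 1.60, and with the 6 libraries alone the microglia median was -2.47, over fewer genes tested. In the remaining alternatives these medians and counts stayed close, and at an adjusted p under 0.1, the study's level, 2910 genes were higher and 3201 lower.

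Apart from Gli1 with the replicate block, the sign changes came with 1 replicate left out, where the log2 fold change ran from -0.04 to 0.10 for E2f1, from -0.09 to 0.10 for Gli1, from -0.10 to 0.08 for Mog, from -0.12 to 0.20 for Slc17a7 and from -0.03 to 0.25 for Tbr1. The cause was not tested. Replicate numbers did not pair the libraries, as same-numbered deviations correlated at 0.0885, -0.16 and 0.183 across genes and not every library correlated best with its own number. With the numbers as a replicate block, 2433 genes were higher and 2780 lower, and Gli1 stood at 0.00. The block ended the call of Kcne2 (-1.40), added that of Sox2 (0.21), and gave 4 radial glia and 2 p53 target genes higher and 4 glutamatergic, 4 astrocyte, 5 cholesterol and 8 segment genes lower, among other changes. Depth limits vascular, microglia and late myelin genes, several of which had under 10 counts per library.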

Other observations

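Of 17 tested genes of the diencephalon and midbrain, 4 rose and 4 fell, beside 14.1 and 15.2% of all autosomal genes. Their median log2 fold change of 0.27 turned to -0.37 with the 6 libraries fitted alone, where 9 members passed the filter. It was 0.64 without Euploid replicate 2 and 0.14 without Ts65Dn;Brwd1+/- replicate 3. The zinc finger genes Zic1 and Zic4 rose by 2.02 and 1.52. Zic1 read 8.35, 9.47 and 11.1 CPM in Euploid and 35.5, 40.8 and 41.6 CPM in the libraries labelled Ts65Dn;Brwd1+/-. In Ts65Dn against the same Euploid libraries it stood at 3.48. The homeobox genes Irx3 and Irx5, which act in the caudal forebrain and midbrain, fell by 1.45 and 1.18. Without Euploid replicate 2 or Ts65Dn;Brwd1+/- replicate 1, 2 members were called lower.

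Immediate early genes, which respond to neuronal activity and to handling, did not move as one group. Of 18 tested members, 4 rose and 4 fell (median -0.01), beside 14.1 and 15.2% of all autosomal genes. Egr1 rose by 1.12, from 26.6, 29.2 and 31.9 CPM in Euploid to 73.6, 57.3 and 59.7 CPM in the libraries labelled Ts65Dn;Brwd1+/-. The neurotrophin gene Bdnf fell by 1.18 and the AP-1 subunit gene Junb by 0.78. Fos (-0.20) and Npas4 (-0.22) were not called. Without Euploid replicate 3 or without Ts65Dn;Brwd1+/- replicate 1, 1 of the 18 was called higher, and 2 were without Euploid replicate 1 or Ts65Dn;Brwd1+/- replicate 3.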
